A study of Mus musculus with 20 samples.

Results

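The growth hormone and IGF1 axis was examined in the liver of mice given benzo[a]pyrene (BaP), a polycyclic aromatic hydrocarbon formed in incomplete combustion. Its members were 10 genes chosen by name: *Ghr*, *Stat5b*, *Igf1*, *Igfals*, *Igfbp1*, *Igfbp2*, *Igfbp3*, *Igfbp4*, *Socs2* and *Cish*. Every probe whose transcript accession belonged to 1 of these genes was taken, which gave 14 probes of the 41174 on the array. All 14 were above the detection limit and were therefore among the 27346 probes tested, which covered 12986 named genes. The rule itself uses no measured value.

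The animals were male Muta™Mouse mice, a transgenic strain (40.6) whose every cell carries a lacZ reporter used to count mutations, so controls and exposed mice alike carried it. They were 25 weeks old, housed singly, and received BaP in olive oil by oral gavage at 25, 50 or 75 mg/kg/day for 28 days, or olive oil alone, and tissue was taken 3 days after the last dose. Each group held 5 mice, and the RNA of each mouse was hybridized to its own 2-colour array, so the 20 arrays are 20 animals. Liver RNA was labelled with Cy5 and the same universal reference RNA, pooled from 11 mouse cell lines, with Cy3 on every array; each value is log2 of liver over reference. All 3 dose groups were compared with the same 5 controls.

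One label of the samples names lungs and another liver. Of 10 hepatocyte markers 8 could be tested, and all 8 were well above background on all 20 arrays, so the tissue is called liver here. Of 6 lung epithelium markers, the surfactant protein genes *Sftpb* and *Sftpc* were well above background on 0 arrays, *Ager* on 1, *Scgb1a1* on 5, *Sftpa1* on 16 and *Sftpd* on 19. *Sftpd* was 1.19 higher than control at 75 mg/kg/day by log2 fold change (limma adjusted p = 0.0688), and the mean of the 4 tested lung markers was 0.36 higher. Between 51.9% and 67.5% of spots were well above background per array; the highest share belonged to control replicate 4. No spot was saturated. The 25 mg/kg/day arrays all lay at the second position of their slide and the 75 mg/kg/day arrays all at the fourth, so for those groups dose and slide position cannot be told apart. Controls lay at the first position except replicate 2, and the 50 mg/kg/day arrays at the third except replicate 13. Dose and position can thus hardly be told apart in any group. Slides 4 and 5 held only 25 and 75 mg/kg/day arrays, and slide 6 only control and 50 mg/kg/day arrays. Hepatocyte number and RNA content per hepatocyte cannot be told apart in whole liver either.

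Growth hormone from the pituitary binds its receptor, encoded by *Ghr*, on hepatocytes. The receptor activates the kinase JAK2, which phosphorylates STAT5B, and STAT5 dimers then enter the nucleus and switch on target genes, among them *Igf1*, the gene of the main circulating growth factor, and *Igfals*, whose product holds IGF1 and IGFBP3 in a long-lived complex in blood. *Socs2* and *Cish* encode suppressors of cytokine signalling that are induced by the same signal and damp it, and the IGFBP proteins bind IGF1 and set how much of it reaches its receptor. In male rodents the hormone is released in pulses; neither the hormone nor any protein was measured here.

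STAT5 dimers recognise the core TTCNNNGAA, a palindrome that reads the same on both strands. It was searched in the RefSeq promoter windows of 300 bases (250 before and 50 after each annotated start site, build GRCm38.p6), of which 9 of the 10 genes had 14; *Socs2* had none. Windows of 2 genes, *Cish* and *Igfals*, held the core. They are shown because they hold this core, which is in capitals.

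Cish, chr9:107296409-107296708, plus strand: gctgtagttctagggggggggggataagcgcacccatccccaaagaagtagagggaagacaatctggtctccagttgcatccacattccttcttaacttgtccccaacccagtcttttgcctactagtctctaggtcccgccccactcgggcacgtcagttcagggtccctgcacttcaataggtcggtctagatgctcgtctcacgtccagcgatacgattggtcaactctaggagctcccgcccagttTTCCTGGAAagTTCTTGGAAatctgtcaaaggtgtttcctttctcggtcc

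Igfals, chr17:24877594-24877893, plus strand: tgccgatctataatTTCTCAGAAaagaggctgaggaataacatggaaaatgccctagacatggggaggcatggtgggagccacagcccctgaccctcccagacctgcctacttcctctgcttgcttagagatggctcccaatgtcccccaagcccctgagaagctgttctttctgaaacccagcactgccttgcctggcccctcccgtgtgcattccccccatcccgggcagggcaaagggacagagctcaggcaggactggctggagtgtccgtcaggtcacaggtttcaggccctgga

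Igfals, chr17:24877981-24878280, plus strand: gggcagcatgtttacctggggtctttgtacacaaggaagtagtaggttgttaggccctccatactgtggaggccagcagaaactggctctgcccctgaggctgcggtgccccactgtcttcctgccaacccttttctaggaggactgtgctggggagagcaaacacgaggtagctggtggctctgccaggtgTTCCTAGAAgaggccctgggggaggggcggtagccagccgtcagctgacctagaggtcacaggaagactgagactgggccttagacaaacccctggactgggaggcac

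The *Cish* window held 2 cores, the first beginning at the annotated start site and the second 11 bases downstream of that point. Of all 32851 windows, 0.457% held 2 or more cores and 8.30% held at least 1. Counted by gene, 9.55% of all 27025 genes had a window with the core, beside 2 of the 9 members. Each of the *Igfals* windows held 1 core, beginning at −236 and at −58 relative to its own start site, and the remaining *Igfals* window held none. A match describes these letters only, and no binding was measured.

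No member of the axis was called at any dose by the test used here. The study, with a different test and 1 sample left out, reported a significant increase of *Igf1* at 75 mg/kg/day. A probe was called when its Benjamini-Hochberg adjusted p from limma was under 0.05 and its fold change over 1.5. At 25 and at 50 mg/kg/day 0 of the 10 genes were called, as were 0% of all probes. At 75 mg/kg/day 0 of 10 genes were called against 0.135% of all probes, and 0 of 10 had a slope with dose at an adjusted p under 0.05 against 0.157% of all probes. At an unadjusted p under 0.05, 1 gene was higher than control at 25 mg/kg/day (*Igf1*), where 4.18% of all probes were higher and 3.62% lower. At 50 mg/kg/day 2 genes were higher (*Igfals* and *Igfbp2*), where 3.75% of all probes were higher and 2.94% lower. Over all 14 probes 3 were higher at that dose, the further one being the dimmer *Igfbp4* probe. At 75 mg/kg/day 4 genes were higher (*Igf1*, *Igfals*, *Igfbp2* and *Socs2*), where 6.52% of all probes were higher and 4.69% lower. The same 4 genes had a rising slope with dose at an unadjusted p under 0.05, where 5.07% of all probes had a rising slope and 3.51% a falling one. No gene was lower by this count in any of the comparisons.

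The genes lay above control at 5 of 10, 8 of 10 and 8 of 10 at 25, 50 and 75 mg/kg/day, where 50.3%, 49.2% and 50.6% of all probes did. Their median log2 fold change was 0.05, 0.15 and 0.31 in that order, against 0.00088, −0.0032 and 0.0025 over all probes. These figures use the brightest probe of each gene. Over all 14 probes the number above control at 75 mg/kg/day was 8 and the median 0.05, because further probes of *Ghr*, *Igfbp4* and *Stat5b* lay below 0.

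**Figure D1:**
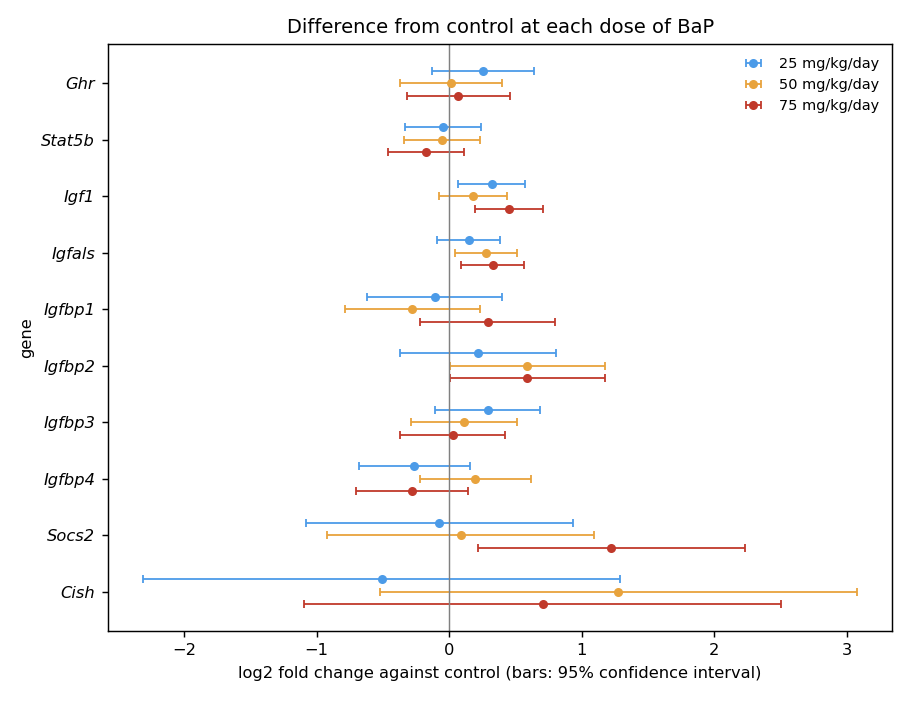
Log2 fold change against control (x axis) for the 10 genes (y axis) at 3 doses; points are limma estimates from 20 arrays and bars are 95% confidence intervals. Intervals of *Igf1*, *Igfals*, *Igfbp2* and *Socs2* at 75 mg/kg/day lie above 0, that of *Igfbp2* by 0.004, and those of *Cish* are the widest.

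The receptor and its transducer differed little between groups. *Ghr* had a log2 ratio of 2.56 ± 0.31 in controls, 2.82 ± 0.36 at 25, 2.58 ± 0.18 at 50 and 2.63 ± 0.37 at 75 mg/kg/day (mean ± SD, n = 5 each). Its difference from control at 75 mg/kg/day was 0.07, with a 95% confidence interval of −0.32 to 0.46, and the other *Ghr* probes gave −0.06 and −0.22. *Stat5b* stood at 1.48 ± 0.30 in controls and 1.30 ± 0.17 at 75 mg/kg/day, a difference of −0.18 (interval −0.46 to 0.11, limma adjusted p = 0.661). The dimmer *Stat5b* probe differed by −0.02 at that dose. Both genes overlapped with control at every dose.

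*Igf1* gave the smallest adjusted p of the axis at 75 mg/kg/day. Its controls measured 5.11, 4.58, 4.83, 4.46 and 4.94. The 25 mg/kg/day mice measured 5.35, 5.17, 5.12, 4.93 and 4.94, the 50 mg/kg/day mice 4.90, 5.03, 4.76, 5.04 and 5.08, and the 75 mg/kg/day mice 5.12, 5.15, 5.41, 5.08 and 5.42. Of the highest dose group 4 of 5 mice lay above every control, the lowest of these 4 by a difference in the third decimal, and replicate 19 lay just under control 1, while the lower doses overlapped with control more widely. The log2 fold change was 0.32 (SE 0.12) at 25, 0.18 (SE 0.12) at 50 and 0.45 (SE 0.12) at 75 mg/kg/day, or 1.37-fold at the top dose, with adjusted p of 0.636, 0.814 and 0.171. A two-sided exact permutation test of the 5 against 5 arrays gave p = 0.0159 at 75 mg/kg/day, where the smallest p possible is 0.00794. The probe was spotted 10 times per array, with an SD between spots of 0.02 to 0.13, below the SD of 0.26 between control mice.

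*Igfals*, the partner of IGF1 in blood, gave log2 ratios of 3.11, 3.45, 3.39, 3.58 and 3.61 in controls and 3.78, 3.94, 3.62, 3.73 and 3.71 at 75 mg/kg/day. It was the one member whose top dose group did not overlap with control, each of the 5 exposed mice lying above each control by the representative probe; 0.936% of all probes did the same. The groups nearly touched, with 3.62 in the lowest exposed mouse and 3.61 in the highest control. The group difference was 0.15 (SE 0.11) at 25, 0.28 (SE 0.11) at 50 and 0.33 (SE 0.11) at 75 mg/kg/day, the last with an adjusted p of 0.288; the two-sided exact permutation test at 75 mg/kg/day gave p = 0.00794, the smallest possible.

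The differences in the ratios of *Igf1* and *Igfals* were not matched by the liver channel alone. With each channel taken alone and quantile normalized between arrays, *Igf1* was 0.05 higher in liver and 0.32 lower in the reference channel at 75 mg/kg/day, and *Igfals* was 0.03 higher in liver and 0.15 lower in the reference. In the liver channel the SD of *Igf1* was 0.15 in controls and 0.16 at that dose. For *Igfals* these SDs were 0.61 and 0.49, both wider than its difference in the ratio, so its liver channel difference is imprecise. The reference RNA was the same on all arrays. The 8 tested hepatocyte markers, among them albumin (*Alb*) and the apolipoprotein gene *Apoa1*, behaved alike: 8 of 8 were above control at 75 mg/kg/day by the ratio, with a median of 0.42, but their median difference was −0.04 in the liver channel and −0.40 in the reference channel. Their mean per array, set against the control mean, ran from −0.62 to 0.63 in controls and from 0.13 to 0.51 at 75 mg/kg/day. Control 1, highest of the controls in these markers, was also the highest control for *Igf1*, and control 4 was the lowest for both. For *Igfals*, control 1 was instead the lowest control. Over the 20 arrays the marker mean correlated by the ratio with *Igf1* at r = 0.84 and with *Igfals* at r = 0.15. Expressed relative to the markers on the same array, *Igf1* differed from control by 0.00, −0.11 and 0.04 at the 3 doses, the last with an interval of −0.34 to 0.41, and *Igfals* by −0.09 at 75 mg/kg/day. That scale moves the median of all probes by −0.41 at this dose. The part of the reference channel in these ratios was not tested further.

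**Figure D2:**
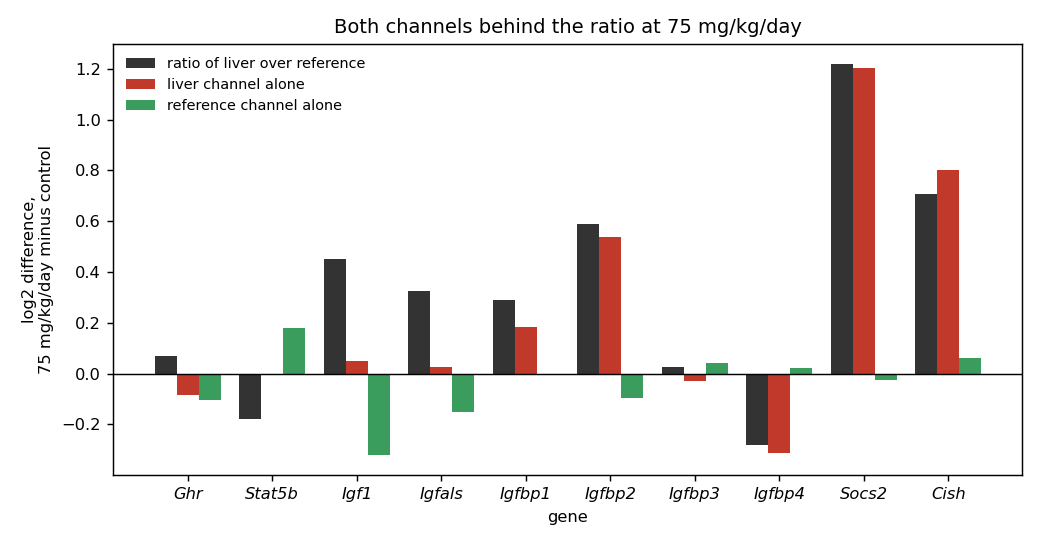
Mean log2 difference between 75 mg/kg/day and control mice (y axis, n = 5 each) for the ratio, the liver channel and the reference channel of each gene (x axis). The bars of *Socs2* (1.22 and 1.20) and *Igfbp2* (0.59 and 0.54) are alike in ratio and liver channel, whereas those of *Igf1* (0.45 and 0.05) and *Igfals* (0.33 and 0.03) are not. No spread is drawn.

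*Igfbp2* is made mainly by hepatocytes in the adult. Among the binding proteins it showed the greatest differences from control at 50 and 75 mg/kg/day by the ratio. Its log2 ratios were 2.80, 2.98, 3.14, 2.74 and 1.68 in controls. At 25 mg/kg/day they were 3.29, 3.43, 2.14, 3.16 and 2.40. They were 3.25, 3.48, 3.44, 3.26 and 2.86 at 50 mg/kg/day and 3.49, 3.13, 2.53, 3.32 and 3.83 at 75 mg/kg/day. Above every control lay 3 of 5 mice at 25, 4 of 5 at 50 and 3 of 5 at 75 mg/kg/day, and 1 control mouse lay far below the other 4. The difference was 0.22 at 25 and 0.59 at both 50 and 75 mg/kg/day (SE 0.28 each), with adjusted p of 0.866, 0.743 and 0.444. Without control replicate 5 it was −0.031, 0.34 and 0.34. Relative to the hepatocyte markers it was 0.18 at the top dose.

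*Igfbp1*, an insulin- and stress-responsive binding protein gene of hepatocytes, overlapped with control at each dose. Its log2 ratios were 6.77, 5.84, 6.35, 6.13 and 6.72 in controls, 6.52, 6.38, 5.32, 5.57 and 6.63 at 50 mg/kg/day and 6.95, 6.86, 6.12, 6.62 and 6.70 at 75 mg/kg/day. The lowest mice were in the middle dose group and the highest in the top dose group. Differences from control were −0.11, −0.28 and 0.29 (SE 0.24 each) from the lowest to the highest dose. In the liver channel alone they were −0.71, −0.82 and 0.19. By the ratio, the difference at 25 mg/kg/day ran from −0.24 without control replicate 2 to −0.010 without control replicate 1, that at 50 mg/kg/day was −0.089 without replicate 13, and that at 75 mg/kg/day was 0.16 without control replicate 2.

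*Igfbp3*, the main carrier of IGF1 in blood, is made in liver largely by cells other than hepatocytes. It stood at 0.93 ± 0.40 in controls and 0.95 ± 0.27 at 75 mg/kg/day (mean ± SD, n = 5), a difference of 0.03 with an interval of −0.37 to 0.42. At the same dose 11 of 12 endothelial markers lay above control by the ratio, with a median of 0.47 over all 12. *Lyve1*, 1 of the 12, was called (log2 fold change 2.23). Against the control mean, the mean of these markers per array ran from −0.50 to 0.30 in controls. At 75 mg/kg/day it ran from 0.23 to 0.86. Of the stellate cell and fibroblast markers 7 of 11 and of the Kupffer cell and macrophage markers 8 of 9 lay above control, with medians of 0.34 and 0.12, and 1 Kupffer cell marker, *Marco*, was called (log2 fold change 2.19, adjusted p = 0.00148). Over all probes 50.6% lay above control and 0.135% were called. *Lyve1* and *Marco* were named after their values were seen. The part of these cells in *Igfbp3* was not tested, and the liver channel alone was not examined for their markers. *Igfbp4* stood at 2.26 ± 0.36 in controls, 2.00 ± 0.43 at 25, 2.46 ± 0.15 at 50 and 1.98 ± 0.37 at 75 mg/kg/day. Its differences had opposite signs at neighbouring doses, −0.26, 0.20 and −0.28, and its second probe gave −0.05, 0.51 and −0.06, so the probes shared the sign but not the size.

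The feedback inhibitors gave the largest difference from control in size at each dose, *Cish* at 25 and 50 mg/kg/day and *Socs2* at 75 mg/kg/day. *Socs2* measured 1.58, 0.86, 1.20, 0.70 and 1.26 in controls. At 25 mg/kg/day the values were 0.48, 1.83, 1.26, 1.76 and −0.10, and at 50 mg/kg/day they were 1.23, 1.71, 0.95, 2.01 and 0.13. At 75 mg/kg/day they were 2.47, 3.07, 2.19, 0.34 and 3.64. Of the top dose group 4 of 5 mice lay above every control and 1, replicate 19, lay below every control, while both lower dose groups reached above and below the controls. The difference at 75 mg/kg/day was 1.22 (SE 0.48, interval 0.21 to 2.23), or 2.33-fold, with limma's adjusted p = 0.351. The exact permutation test gave p = 0.0714. Differences at 25 and 50 mg/kg/day were −0.07 and 0.08. Leaving out replicate 19 made the difference at the top dose 1.72 (adjusted p = 0.0714) and leaving out replicate 20 made it 0.90. On slides 1, 2 and 3, which held 1 array of each group, the 75 mg/kg/day mouse exceeded the control mouse by 2.37, 0.93 and 0.89. Replicates 19 and 20 were on slides without a control, so these values leave out the mouse that lay below every control.

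*Cish* measured 1.27, 2.02, −0.24, 0.59 and 2.17 in controls. The values were −0.89, −0.39, 1.71, 3.02 and −0.17 at 25, 2.82, 2.64, 3.07, 3.32 and 0.34 at 50, and 1.77, 2.50, 2.65, −1.52 and 3.94 at 75 mg/kg/day. Of the middle dose group 4 of 5 mice lay above every control, and the highest and the lowest of all 20 mice were both in the 75 mg/kg/day group, 44.0-fold apart. The differences were −0.51, 1.28 and 0.71 with an SE of 0.86 each, and adjusted p of 0.904, 0.810 and 0.803. At the top dose the difference was 0.19 without replicate 20 and 1.55 without replicate 19. With slide as a fixed block the difference at 25 mg/kg/day was 0.19 and at 75 mg/kg/day 1.41.

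**Figure D3:**
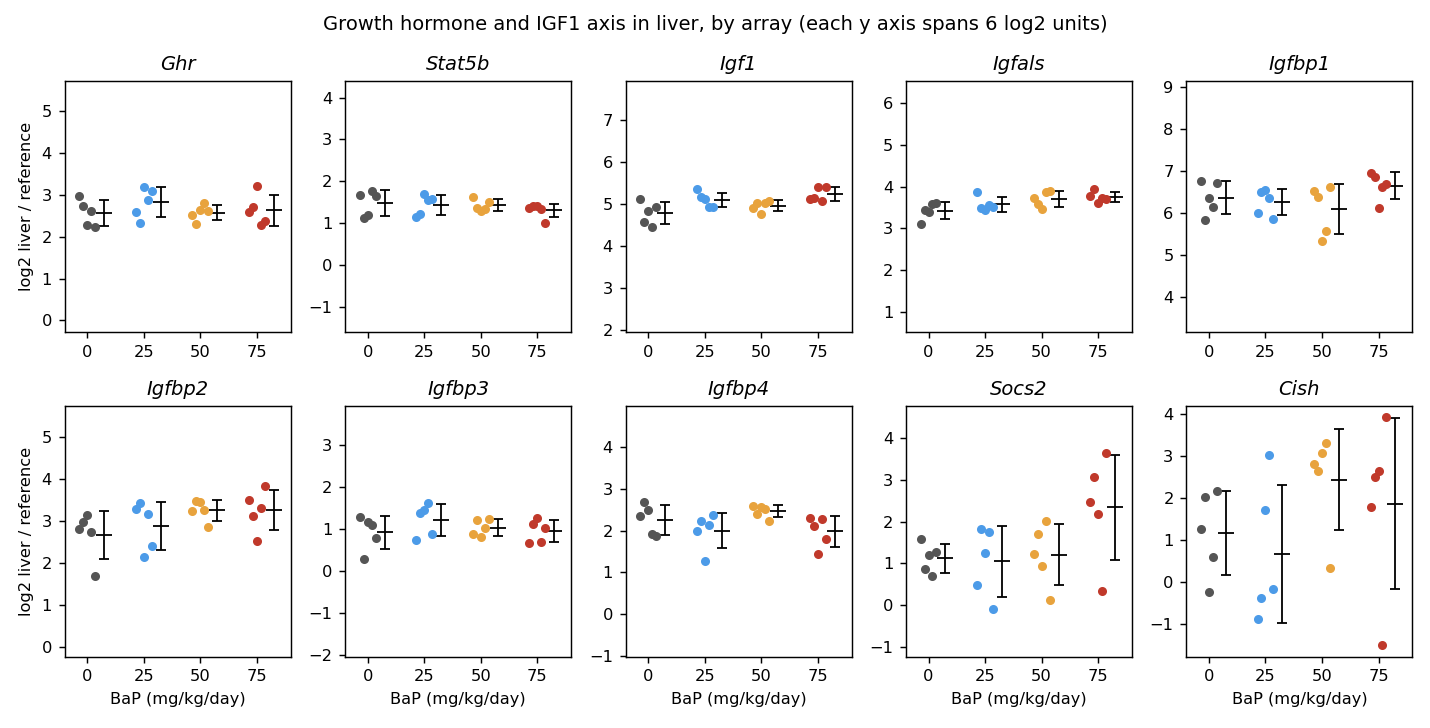
Log2 liver over reference (y axis, each panel spanning 6 log2 units) for the 10 genes by BaP dose (x axis); each point is 1 mouse and the bar gives mean ± SD of a group. Points lie close together for *Igf1* and *Igfals* and far apart for *Cish* and, at 75 mg/kg/day, for *Socs2*.

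The 10 genes differed widely in how much they varied between mice of one group. The SD within groups was 1.53 for *Cish* and 0.85 for *Socs2*, higher than for 99.9% and 99.4% of all probes tested, where the median was 0.22. *Igfbp2* (0.49) and *Igfbp1* (0.42) lay at the 95.5th and 92.4th percentile. By the ratio the growth factor and its blood partner were the least variable, *Igf1* at 0.19 and *Igfals* at 0.17, both below the median of all probes. In the liver channel alone the SD of *Igfals* was 0.61 in controls and 0.49 at 75 mg/kg/day, and that of *Igf1* 0.15 and 0.16. From the lowest to the highest of the 20 mice, *Socs2* spanned 13.3-fold, *Igf1* 1.94-fold and *Igfals* 1.77-fold. The *Socs2* SD was 0.35 in controls, 0.84 at 25, 0.73 at 50 and 1.25 at 75 mg/kg/day; no test of these SDs was run.

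**Figure D4:**
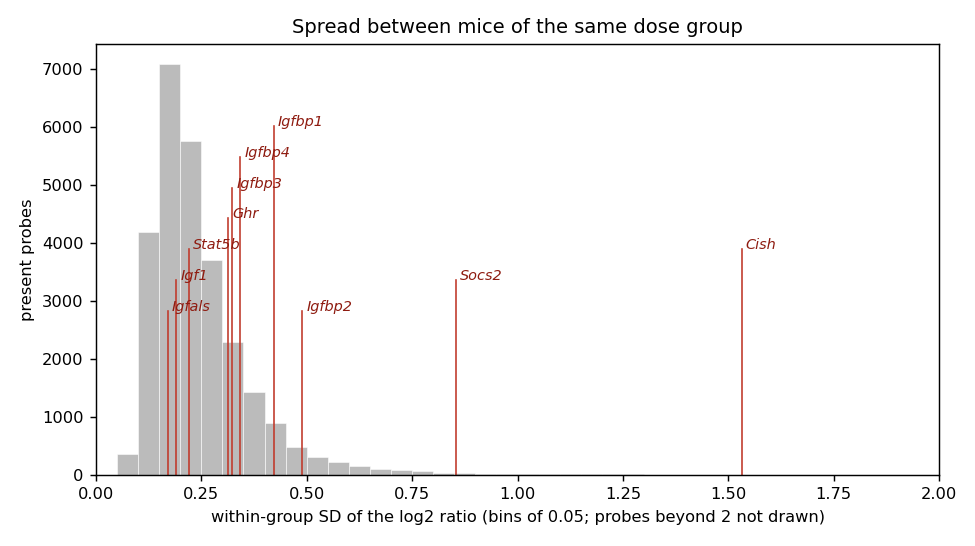
Number of tested probes (y axis, grey bars) by the SD of the log2 ratio between mice of the same group (x axis), with the 10 genes marked by red lines, whose heights carry no value. *Igf1* and *Igfals* lie left of the median of 0.22, and *Socs2* (0.85) and *Cish* (1.53) lie in the far right tail.

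*Socs2* and *Cish* varied together from mouse to mouse. Over the 20 mice Pearson's r was 0.65 (permutation p = 0.00173, adjusted over 6 gene pairs 0.0104) and Spearman's rho 0.59 (permutation p = 0.0061, adjusted 0.0366). Without the 2 mice farthest from the median of *Socs2*, r was 0.58. It was 0.75 after group means were taken out, 0.74 after slide means were taken out and 0.67 in the liver channel alone. Mouse 19 was lowest of its dose group for both genes and mouse 20 highest for both. In the 50 mg/kg/day group, mouse 15 was lowest for both and mouse 14 highest. The extremes did not match in the other groups. At 25 mg/kg/day *Socs2* was highest in mouse 7 and lowest in mouse 10, and *Cish* highest in 9 and lowest in 6. Among controls *Socs2* was highest in mouse 1 and lowest in 4, and *Cish* highest in 5 and lowest in 3.

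**Figure D5:**
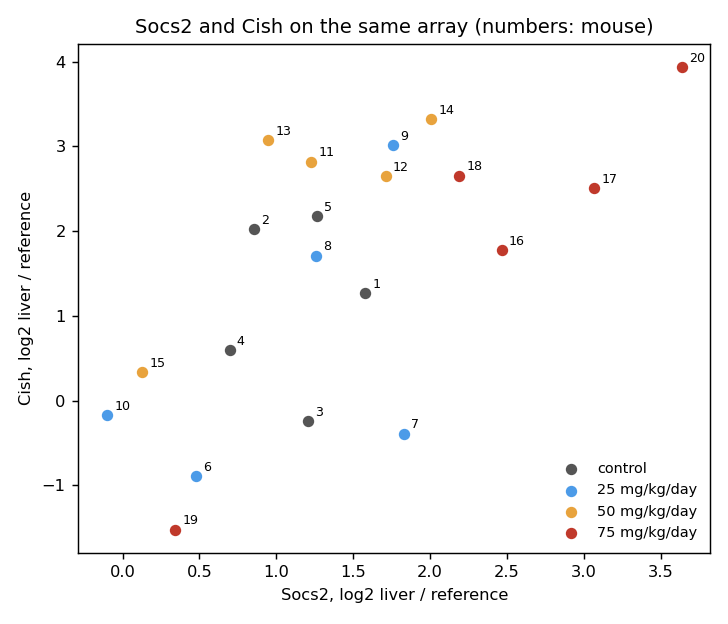
Log2 liver over reference of *Cish* (y axis) against *Socs2* (x axis), 1 point per mouse, coloured by dose and numbered by replicate (n = 20, r = 0.65). Mouse 20 lies at the upper right and mouse 19, of the same dose group, at the lower left.

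No other pair of the 6 passed adjustment. *Socs2* with *Igf1* gave r = 0.46 (permutation p = 0.0414, adjusted 0.124) and rho = 0.49 (permutation p = 0.0294, adjusted 0.0881); r without the 2 mice farthest from the median was 0.29, and in the liver channel alone it was 0.091. For *Ghr* with *Stat5b* r was 0.38 (adjusted p = 0.195), which became −0.08 once slide means were removed. For *Igf1* with *Igfals* it was 0.32, with *Ghr* 0.11, and for *Igfbp1* with *Igfbp2* −0.05; the first of these was −0.47 in the liver channel.

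The wider pathway was described from a list of 46 genes, of which 41 could be tested: receptors and ligands, binding proteins and proteases, signal transducers, inhibitors and transcription factors. None was called at any dose. At 25, 50 and 75 mg/kg/day 21, 18 and 23 of the 41 lay above control, with medians of 0.01, −0.02 and 0.03, where 50.3%, 49.2% and 50.6% of all probes did. At an unadjusted p under 0.05, 4 of the 41 were higher and 4 lower at 75 mg/kg/day, beside 6.52% and 4.69% of all probes. Signal transducers lay below control in 8 of 12 cases at that dose, with a median of −0.15; named after their values were seen, the adaptor gene *Grb2* (−0.23) and *Pik3r1* (−0.28), a subunit of PI3-kinase, were those at an unadjusted p under 0.05. *Ghrhr*, the receptor for the hypothalamic releasing hormone, was not well above background on any array.

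*Prlr*, the receptor for prolactin and a close relative of *Ghr*, had the smallest p of the list at 75 mg/kg/day. Its log2 ratios ran from 2.35 to 3.25 in controls and from 3.18 to 3.95 at 75 mg/kg/day. Of the exposed mice 4 of 5 lay above every control. The difference was 0.38, 0.55 and 0.72 (SE 0.20 each) from the lowest to the highest dose, the last 1.65-fold with an adjusted p of 0.191. *Igf2r*, which takes up and clears IGF2, differed by −0.40 at 75 mg/kg/day (adjusted p = 0.253), and the ligand gene *Igf2* by −0.35, −0.25 and −0.29 at the 3 doses. Of 2 adaptors that restrain receptor signalling, *Grb14* differed by 0.28, 0.07 and 0.22 and *Grb10* by −0.22, −0.34 and −0.15. *Stc1*, a secreted inhibitor of the proteases that cut IGF binding proteins, differed by −0.37 at 25 mg/kg/day and *Igfbp7* by 0.45 at 50 mg/kg/day. *Hnf4a*, a liver transcription factor that is also 1 of the hepatocyte markers, differed by 0.29 at 75 mg/kg/day.

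Liver genes that depend on the rhythm of growth hormone and so differ between male and female mice were counted as a further description. Of 21 male-biased genes tested, 20, 17 and 19 lay above control at 25, 50 and 75 mg/kg/day, with medians of 0.33, 0.25 and 0.30. The female-biased genes lay above control in 18, 17 and 20 of 22 cases, with medians of 0.23, 0.27 and 0.48. No gene of either group was called at any dose by its brightest probe and the test used here. The study, with a different test, reported *Cyp3a44*, *Cyp2b9* and *Cyp2c40* of the female-biased list as up-regulated at 75 mg/kg/day. It counted them among genes of xenobiotic metabolism. The part of growth hormone or of that metabolism in these counts was not tested. Here the brightest probes of *Cyp3a44*, *Cyp2b9* and *Cyp2c40* differed from control by 0.52, 1.08 and 0.51 at that dose. *Cyp3a44* had the largest fold change of the study, but only 1.44-fold here (limma adjusted p = 0.456), far smaller than the study's value. Other probes of these genes are not given here, and the gap in size was not tested. At an unadjusted p under 0.05, 5 male-biased genes were higher and 1 lower at 75 mg/kg/day, and 11 female-biased genes were higher and 0 lower, beside 6.52% and 4.69% of all probes. Of these 11, *Abcd2* was well above background on only 2 of the 20 arrays, *Prom1* on 9 and *Fmo2* on 18. The largest difference at that dose was 1.44 for *Cyp2b13*, a female-biased cytochrome P450 gene, at an adjusted p of 0.190. One female-biased gene, the cytochrome P450 gene *Cyp2b9*, had an adjusted p under 0.05 for its slope with dose. *Cyp2b13*, *Cyp2b9*, *Abcd2*, *Prom1* and *Fmo2* were named after their values were seen. The hepatocyte markers had a median of 0.42 at the same dose on the ratio scale; their part in these counts was not tested.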

How the data were processed

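Whole-genome 2-colour Agilent arrays measured liver RNA of 20 mice in 4 groups. Per the file headers, each scan was quantified with Feature Extraction 10.1.1.1, and the deposited intensity values are foreground and background medians per spot on a linear scale. The authors also deposited log2 ratios, LOWESS normalized in MAANOVA; they are used as an alternative here. They correlated at 0.994 to 0.996 with the ratios computed below, and their direction, liver over reference, was read from that match.

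From the intensities, normexp background correction (offset 50) and loess within each array were run in limma 3.58.1 (R 4.3.3), control spots and outlier spots (0.292% of spots) being left out, and spots of one probe averaged. A probe was present when its liver signal exceeded the mean of the 153 negative control spots (trimmed by 5%) by 3 SD on at least 4 of 5 arrays of a group. One model with 4 groups was fitted over all 27346 present probes, with Benjamini-Hochberg adjustment within each comparison; a further fit used dose as a number. MAANOVA's permutation test was not run. The study's methods leave out 1 sample without naming it, so all 20 were kept. Tested on simulated data, with 27064 probes and 200 of them changed, the test recovered 191 and made 2 wrong calls at 75 mg/kg/day against control. These counts hold for the sizes of change that were simulated and say nothing of smaller ones. The changed probes were drawn at random, so the counts say little of genes as variable as *Socs2* and *Cish*. Effects of slide, position or reference channel were not simulated. At that dose the fold changes of *Igf1* (1.37) and *Igfals* (1.25) lay under the fold change limit of a call. Neither could therefore be called whatever its p. Those of *Socs2* (2.33), *Cish* (1.63) and *Igfbp2* (1.505) lay over that limit.

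Probes were named by matching transcript accessions to RefSeq (GRCm38.p6). Each gene is represented by its present probe of highest mean intensity. The members and the gene lists were chosen with earlier results of these data known. The genes named are all members, the pathway genes past an adjusted p of 0.05 or among the 3 of smallest p at each dose, the 5 genes of nearest pattern to *Igf1* and to *Socs2*, and others said to be named after their values were seen. *Cyp3a44* and *Cyp2c40* were named because the study reported them. Replicates are separate mice. The number of arrays limits the precision. Dyes were not swapped, so a ratio against 0 carries dye bias, and ratios do not rank genes by abundance. Alternatives covered the background correction, the normalization, the presence filter, the slide, the samples in the fit and the probe; the scale relative to hepatocyte markers was added after the values were seen. Figures were drawn with matplotlib 3.10.9 (Python 3.11.15).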

Additional observations from a re-analysis of the deposited data

Results flagged for a closer look

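In 5 of the 56 combinations of probe and group, 1 mouse lay far from the other 4, its gap to the nearest taking up more of the group's range than Dixon's 95% limit allows; chance alone gives about 2.8. *Igfbp2* measured 1.683 in control replicate 5, against 2.744 to 3.14 in the other controls. *Igfals* measured 3.869 in replicate 6 of the 25 mg/kg/day group, against 3.435 to 3.557. The dimmest *Ghr* probe measured 4.418 in control replicate 1, against 3.585 to 3.769. *Cish* measured 0.3354 in replicate 15 of the 50 mg/kg/day group, against 2.645 to 3.321. *Stat5b* measured 1.01 in replicate 20 of the 75 mg/kg/day group, the mouse with the highest *Socs2* and *Cish*, against 1.334 to 1.41.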

How the results depend on the processing

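Besides the processing described above, 31 settings were tried, 20 of which left out 1 mouse each, and none called a member at any dose or by its slope. Of 1246 member values recomputed, 1160 kept their sign and 86 did not; the cause was not tested for any of them. All values here are log2 fold changes against control or slopes per 10 mg/kg/day. With the scanner software's signals, *Igfbp1* was 0.26 at 25 and 0.061 at 50 mg/kg/day, *Igfbp3* −0.041 at 75 mg/kg/day and the slope of *Ghr* 0.0014. With the authors' ratios, *Ghr* was −0.036 at 50 mg/kg/day and the slope of *Igfbp3* 0.0019. Without background correction the slopes of *Ghr* and *Igfbp3* were 0.00054 and 0.00087. With log ratios scaled between arrays, *Igfbp1* was 0.69 at 25 and 1.20 at 50 mg/kg/day, *Stat5b* 0.16 and 0.29 at these doses, *Igfbp4* 0.026 and *Socs2* 0.0077 at 25 and *Igfbp3* −0.019 at 75 mg/kg/day. In the liver channel alone, *Igfals* was −0.14 and *Stat5b* 0.10 at 25 mg/kg/day, *Ghr* −0.063, *Igf1* −0.094, *Igfbp4* −0.045 and *Stat5b* 0.061 at 50 mg/kg/day, and *Ghr* −0.085 and *Igfbp3* −0.030 at 75 mg/kg/day; r was −0.47 for *Igf1* with *Igfals* and 0.092 for *Igfbp1* with *Igfbp2*. With slide as a fixed block, *Cish* was 0.19 and *Socs2* 0.018 at 25 mg/kg/day and the slope of *Ghr* 0.0019. Relative to the hepatocyte markers, a scale chosen after the values were seen, *Ghr* was −0.064, *Igfals* −0.17, *Igfbp2* −0.10 and *Igfbp3* −0.030 at 25 mg/kg/day. On that scale at 50 mg/kg/day *Ghr* was −0.28, *Igf1* −0.11, *Igfals* −0.0099, *Igfbp3* −0.18, *Igfbp4* −0.092 and *Socs2* −0.20. At 75 mg/kg/day *Ghr* was −0.35, *Igfals* −0.087, *Igfbp1* −0.12 and *Igfbp3* −0.39 on it, with slopes of −0.0040 for *Igfals* and −0.020 for *Igfbp1*. Other probes gave −0.038 and −0.052 for *Ghr* at 50 and −0.065 and −0.22 at 75 mg/kg/day, 0.069 for *Stat5b* at 50 mg/kg/day, and slopes of 0.0024 for *Stat5b* and 0.015 for *Igfbp4*.

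Leaving out 1 mouse at a time gave ranges that crossed 0 for *Igfbp2* (−0.031 to 0.40), *Socs2* (−0.27 to 0.21) and *Stat5b* (−0.13 to 0.030) at 25 mg/kg/day. They did so for *Igfbp3* (−0.048 to 0.20), *Ghr* (−0.073 to 0.11), *Socs2* (−0.12 to 0.35) and *Stat5b* (−0.14 to 0.020) at 50 mg/kg/day, for *Igfbp3* (−0.13 to 0.11) and *Ghr* (−0.078 to 0.17) at 75 mg/kg/day, and for the slopes of *Igfbp3* (−0.025 to 0.0058), *Igfbp4* (−0.025 to 0.0039) and *Ghr* (−0.018 to 0.0090). The smallest adjusted p of *Igf1* at 75 mg/kg/day was 0.0625, without control replicate 1.

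The number of all probes called moved by over 1.5 times in some settings. At 50 mg/kg/day it was 4 with the scanner software's signals, 3 with slide as a fixed block and 6 as a random block, against 0. At 75 mg/kg/day it was 62 with the scanner software's signals, 7 with scaling between arrays, 58 and 62 with slide as a fixed or random block, 5 with control and that dose only and 5 relative to the hepatocyte markers, against 37. The trend gave 5 with scaling, 70 in the liver channel, 28 over probes well above background on all arrays, 95 and 117 with slide as a fixed or random block and 12 relative to the hepatocyte markers, against 43. Leaving out 1 mouse gave 0 to 2 probes at 25 (2 without control replicate 3), 0 to 1 at 50 (1 without replicate 19), 25 to 72 at 75 mg/kg/day (without replicates 20 and 19) and 28 to 59 for the trend (without replicates 17 and 19). No pairing by replicate number was possible, since the groups share none, and slide served as the block instead. The depth of an array is its signal over background, with a median of 1.49 per array.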

Other observations

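The genes whose log2 ratios followed *Igf1* most closely over the 20 mice were *Pla2g12b* (r = 0.95), *Ces1f* (0.93), the coagulation factor genes *F2* (0.90) and *F7* (0.90), and *Cyp2f2* (0.89), out of 12799 genes searched. For *Socs2* they were *Chac1* (0.82), *Id1* (0.80), *Ugcg* (0.77), *Onecut1* (0.72) and *Slc7a2* (0.72). These values describe likeness of pattern, share the arrays and their reference channel, and were not tested. After slide means were taken out, r stood at 0.96 for *Igf1* with *Pla2g12b* and at 0.82 for *Socs2* with *Chac1*. The nearest genes to *Igf1* were closer to it than any gene was to *Socs2*.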
